A study of Mus musculus with 35 samples.

Results

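Transcript levels of 10 genes of fatty acid uptake and of fat cells were followed in whole lungs of mice of 3 Cav1 genotypes, kept in normoxia or in hypoxia. The genes were taken by name from the 54532 genes of the tables. They are Cd36, Lpl, Fabp4, Fabp5 and Plin2, which take up, carry or store fatty acids in several cell types, and Plin1, Adipoq, Cidec, Cfd and Retn, which adipocytes express strongly. All 10 had a row of their own, none of which overlapped another gene, and all 10 passed the filter on low counts in every comparison.

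Fatty acids reach tissues largely as triglycerides inside lipoproteins. Lipoprotein lipase (Lpl) releases them at the capillary wall, the membrane protein Cd36 helps them enter endothelial and other cells, and the cytosolic binding proteins Fabp4 and Fabp5 carry them onward. Inside cells they are stored in lipid droplets, which Plin2 coats in most cell types, whereas Plin1 and Cidec act on the large droplets of adipocytes. Adipoq (adiponectin), Cfd (adipsin, or complement factor D) and Retn (resistin) are secreted adipocyte proteins. Caveolin-1, the product of Cav1, builds caveolae, membrane pits that are dense in endothelial cells and in adipocytes, and mice that lack it are lean. In lung, Cd36 and Fabp4 are known from capillary endothelium and macrophages, Cidec also from alveolar macrophages, and adipocytes lie mainly in the fat around the large airways and vessels.

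The study asked how loss of Cav1 and its return to endothelial cells change the lung in a model of pulmonary arterial hypertension, in each sex. Control mice were wild-type B6/129SJ2, Cav1-KO mice were global knockouts of the Cav1(tm1Mls/)J strain, and Cav1-RC mice lacked Cav1 everywhere except in endothelial cells, where it had been put back. The mice were adults of at least 3 months and spent 6 weeks in normoxia or at 10% oxygen. Genotype, sex and oxygen made 12 groups of 3 mice, or of 2 for normoxic females of the Cav1-KO and the Cav1-RC genotype, and thus 34 libraries of poly-A RNA.

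Library totals ran from 12425535 to 33343006 counts (median 18015172.5). Cav1 itself lay between 989 and 1356 CPM (the count relative to the scaled library total) in the 12 Control libraries and between 1.61 and 4.0 CPM in the 11 Cav1-KO libraries. The 11 libraries labelled Cav1-RC held 1.48 to 6.56 CPM, a range that takes in that of Cav1-KO and lies far below Control, so these counts did not show the reconstitution. Of the libraries labelled male, 3 had female sex-gene levels, with Xist at 752 and 874 CPM in Cav1-RC normoxia replicates 1 and 2 and at 760.5 CPM in Control hypoxia replicate 2, and Y-linked genes at no more than 1.07 CPM. A further division cuts across the groups: 12 of the 34 animals appear on the list of animals used for the study's western blots. They are all of the hypoxic Cav1-KO mice of both sexes, the hypoxic Control males, and replicate 1 of each of 3 female groups (Control at either oxygen level, Cav1-RC in normoxia). Membership of the list cannot be told apart from the condition for Cav1-RC against Cav1-KO in hypoxia, nor for the effect of hypoxia in Cav1-KO. Replicates are labelled as separate mice. In bulk tissue, fewer cells of a type and less RNA per cell cannot be told apart.

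In the authors' mm10 coordinates the uptake and carrier genes lie at chr5:17781690-17888801 (Cd36, ENSMUSG00000002944, minus strand), chr8:68880491-68907448 (Lpl, ENSMUSG00000015568, plus strand), chr3:10204088-10208576 (Fabp4, ENSMUSG00000062515, minus strand) and chr3:10012548-10016607 (Fabp5, ENSMUSG00000027533, plus strand). Fabp4 and Fabp5 thus lie close to each other. The droplet genes lie at chr4:86648386-86670060 (Plin2, ENSMUSG00000028494), chr7:79720218-79732903 (Plin1, ENSMUSG00000030546) and chr6:113424634-113435760 (Cidec, ENSMUSG00000030278), all on the minus strand. The genes of secreted proteins lie on the plus strand at chr16:23146536-23158028 (Adipoq, ENSMUSG00000022878), chr10:79890853-79892655 (Cfd, ENSMUSG00000061780) and chr8:3655770-3660110 (Retn, ENSMUSG00000012705). Counts cover the exons of each gene, and all 10 are protein coding.

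Promoter sequences were at hand for 7 of the 10 genes, all but Lpl, Fabp4 and Fabp5. The 4 below belong to Cd36 and to 3 adipocyte genes, on which the hypoxic comparisons turn, and are shown for the letters just upstream of each. They are RefSeq sequences on GRCm38.p6 (mm10), read 5′ to 3′ toward the gene. The windows are chr5:17835897-17836146 on the minus strand for Cd36, upstream of a start inside the longest Cd36 gene model, chr7:79732904-79733026 on the minus strand for Plin1, chr16:23146286-23146535 on the plus strand for Adipoq and chr10:79890603-79890852 on the plus strand for Cfd. Each window ends 1 base before the RefSeq start, save that of Plin1, which ends 128 bases before it because GENCODE places a Plin1 exon in the rest. Capitals mark motif matches on either strand.
Cd36: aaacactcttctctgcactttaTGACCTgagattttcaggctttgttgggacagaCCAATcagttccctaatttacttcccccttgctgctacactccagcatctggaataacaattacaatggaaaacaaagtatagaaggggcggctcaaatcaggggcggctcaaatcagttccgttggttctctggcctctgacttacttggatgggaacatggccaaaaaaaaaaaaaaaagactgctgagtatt
Plin1: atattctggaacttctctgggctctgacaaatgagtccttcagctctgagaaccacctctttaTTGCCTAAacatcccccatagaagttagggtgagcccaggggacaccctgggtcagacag
Adipoq: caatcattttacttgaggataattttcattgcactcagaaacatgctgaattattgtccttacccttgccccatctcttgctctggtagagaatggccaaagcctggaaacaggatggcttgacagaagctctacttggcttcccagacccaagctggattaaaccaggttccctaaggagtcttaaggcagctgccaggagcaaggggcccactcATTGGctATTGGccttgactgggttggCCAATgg
Cfd: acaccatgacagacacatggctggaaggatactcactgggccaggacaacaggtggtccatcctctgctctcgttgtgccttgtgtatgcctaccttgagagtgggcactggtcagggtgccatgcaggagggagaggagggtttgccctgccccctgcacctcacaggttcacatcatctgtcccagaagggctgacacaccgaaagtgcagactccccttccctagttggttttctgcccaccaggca

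The motifs searched were the PPAR core AGGTCA, the CCAAT box, the C/EBP site TTNNGCAA, the TATA box TATAAA and the hypoxia response core ACGTG. Cd36 held an AGGTCA on the reverse strand near the 5′ end of its window and a CCAAT 195 to 191 bases before the start. Plin1 held 1 TTNNGCAA match on the reverse strand, at 187 to 180 bases, in the stretch printed. Adipoq held 3 CCAAT matches, at 34 to 30 and 27 to 23 bases on the reverse strand and at 7 to 3 bases on the forward strand. Cfd held none of the motifs in its window. Of all 32851 promoters of the same length, 14.0% held AGGTCA, 33.8% CCAAT, 9.56% TTNNGCAA, 12.4% TATAAA and 16.6% ACGTG, so matches to these letters are common.

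Cd36 was the most abundant of the 10 transcripts in lung. In FPKM, which divides a count by gene length and library size and so allows levels of different genes to be compared, its median over the 34 libraries was 239.6 (range 76.6 to 381). Plin2 (33.4, range 24.9 to 79.9) and Cfd (33.1, range 3.01 to 152) had like medians, although Cfd varied far more. Lpl (20.2, range 8.37 to 33.4) and Fabp5 (19.2, range 8.59 to 41.3) came next and overlapped over most of their ranges. Cidec (6.64, range 2.22 to 23.1) and Fabp4 (6.57, range 2.81 to 20.1) formed a lower pair. The 3 scarcest were adipocyte genes, with median FPKM of 2.47 for Adipoq (range 0.0918 to 7.65), 1.34 for Retn (range 0.241 to 4.88) and 0.932 for Plin1 (range 0.0484 to 3.49). Neighbouring genes in this order overlapped in every case.

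Other adipocyte markers ran from nearly absent to abundant. Genes that other lung cells are also known to use were high in every library, with Cebpa at 115 to 360 CPM, the receptor gene Adipor2 at 123 to 298 CPM and the fatty acid synthesis genes Fasn and Scd1 at 96.9 to 1450 and 498 to 5322 CPM. Adrb3, the adrenergic receptor of fat cells, lay between 5.10 and 36.9 CPM over all groups. Leptin (Lep), which white adipocytes secrete, had group medians from 0.0218 to 0.377 CPM and was at 0 in 3 of the 6 hypoxic Cav1-KO libraries. Ucp1, the uncoupling protein of brown fat, did not pass 0.378 CPM outside hypoxic Cav1-RC lung, where its highest value was 7.06 CPM in 1 library. Sftpc, surfactant protein C of alveolar type 2 cells, stood between 8754 and 21786 CPM over all groups.

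**Figure D1:**
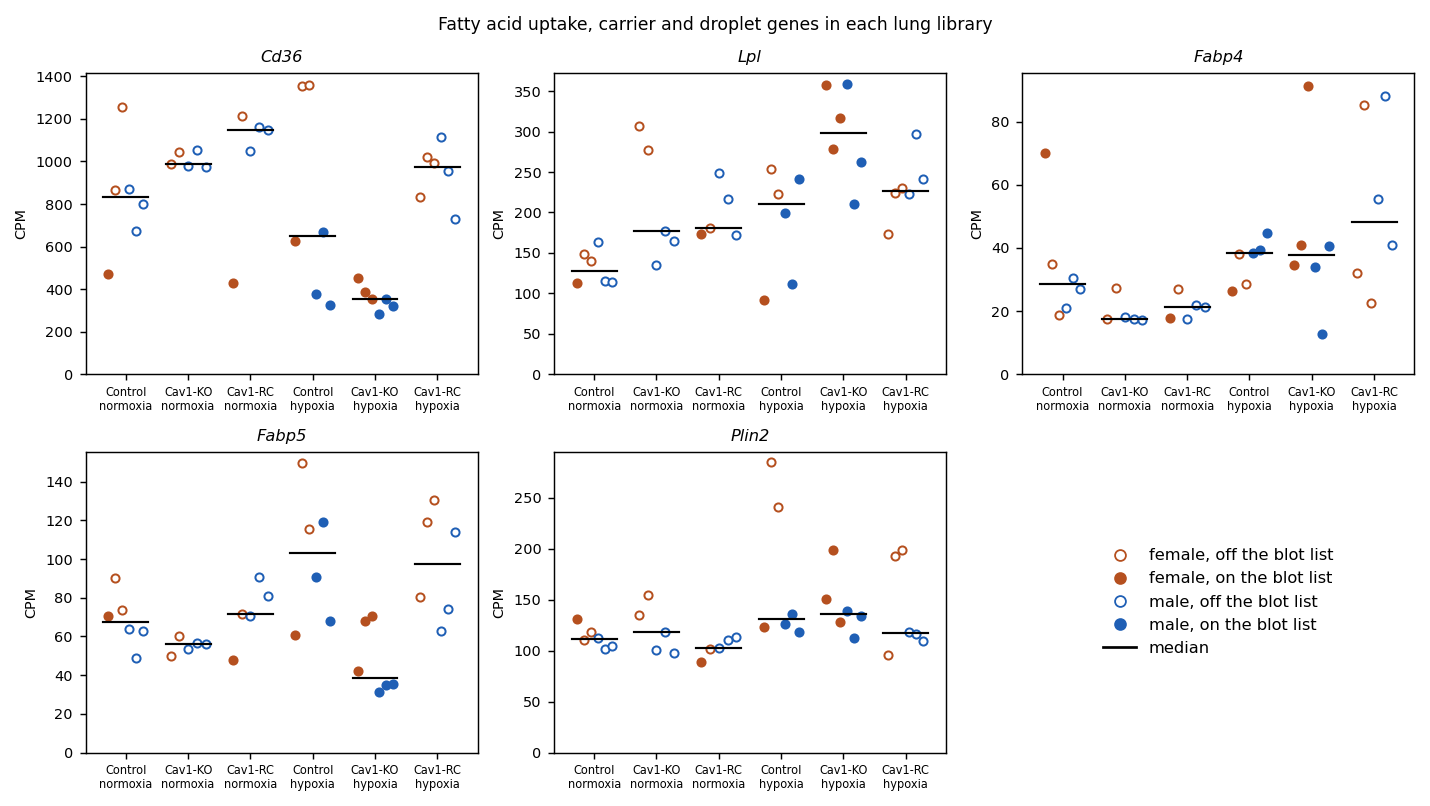
CPM of Cd36, Lpl, Fabp4, Fabp5 and Plin2 (linear axis from 0) in each of the 34 libraries, by genotype and oxygen. Orange points are female, blue points male, filled points animals on the western blot list, and lines are medians. The hypoxic Cav1-KO libraries lie at 281 to 452 CPM for Cd36, below the 729 to 1115 CPM of hypoxic Cav1-RC.

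**Figure D2:**
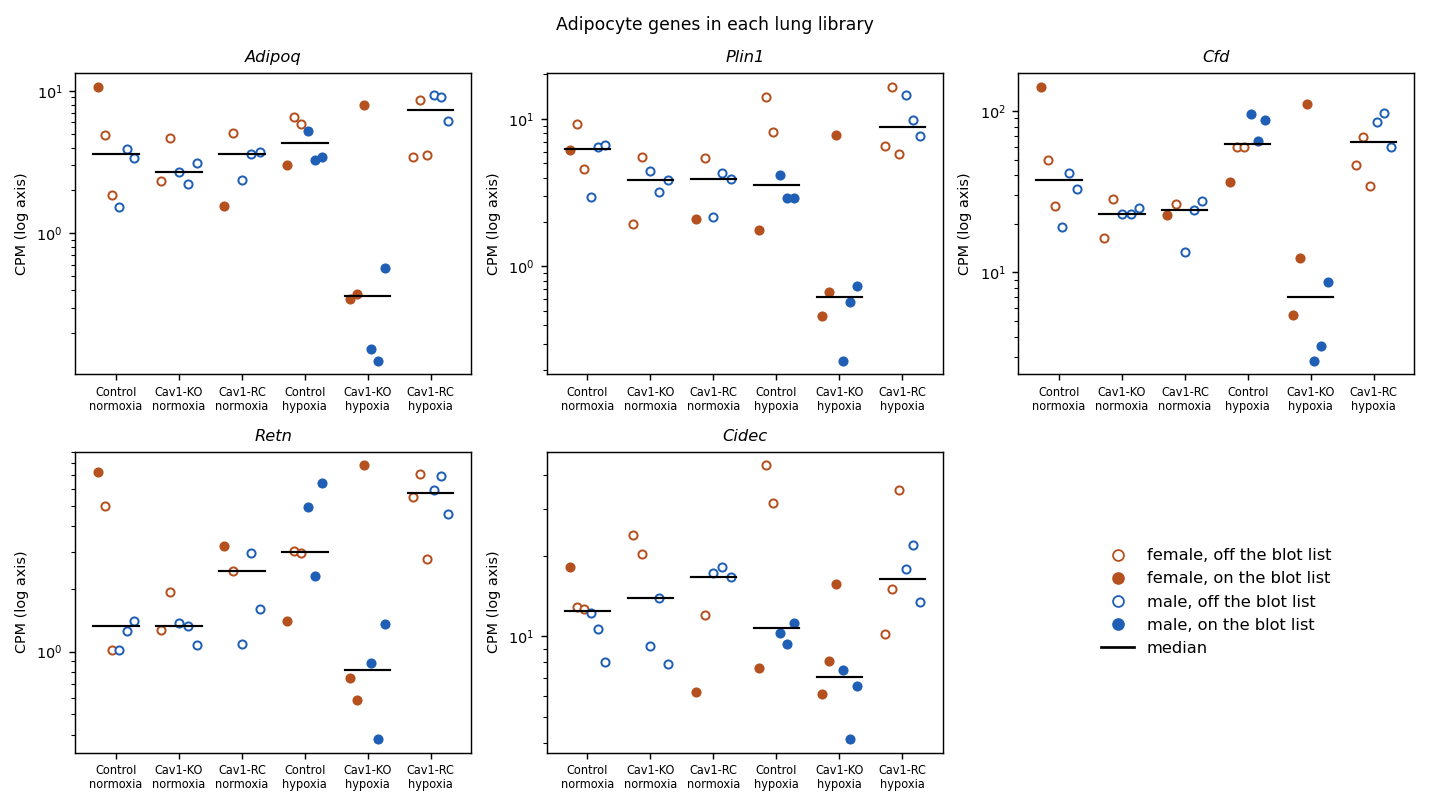
CPM of Adipoq, Plin1, Cfd, Retn and Cidec (log axis) in the same libraries and with the same colours, fills and medians. In hypoxic Cav1-KO lung 5 of the 6 libraries hold at most 0.568 CPM of Adipoq, whereas the remaining one, female replicate 3, holds 8.0 CPM.

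In normoxia, 1 member had an adjusted p under 0.05 between Cav1-KO and Control lung over both sexes, as did 13.2% of all genes. Lpl, the lipase, was higher in Cav1-KO lung, by 0.70 ± 0.13 (log2 fold change ± SE over both sexes), under the fold threshold for a call. Its Control values were 112, 149 and 140 CPM in females and 164, 116 and 114 CPM in males, against 307 and 277 CPM in female and 136, 177 and 165 CPM in male Cav1-KO lungs. All female Cav1-KO values thus lay above all female Control values, as in 17.9% of all genes, whereas the male groups overlapped. The edgeR quasi-likelihood test, with Benjamini-Hochberg adjustment over all genes, gave an adjusted p of 0.00563 for both sexes, 0.127 for females alone and none under 0.05 for males.

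No member was called in normoxia between Cav1-KO and Control, where a call means an absolute log2 fold change over 1 with an adjusted p under 0.05. Among all genes tested 5.78% were called in either direction over both sexes, 0.122% in females and 5% in males. Cfd, adipsin, was past the fold threshold at -1.05 ± 0.39 but not past that of the test (adjusted p 0.0991), and Fabp4 differed by -0.73 ± 0.29 (adjusted p 0.114) by edgeR. The other members gave 0.29 (Cd36), 0.13 (Plin2), 0.30 (Cidec), -0.29 (Fabp5), -0.67 (Plin1), -0.45 (Adipoq) and -0.73 (Retn). In males alone Fabp4 was lower in each Cav1-KO lung (18.1, 17.5 and 17 CPM) than in each Control lung (20.9, 30.4 and 27 CPM), as were 17.8% of all genes, a difference of -0.56 ± 0.14 with an adjusted p of 0.042. Cd36 was higher in each male Cav1-KO lung (980, 1054 and 972 CPM) than in each male Control lung (869, 675 and 800.5 CPM), as were 16.3% of all genes (0.37 ± 0.12, adjusted p 0.0944). The members' median log2 fold change over both sexes was -0.37, beside -0.03 over all genes. At an unadjusted p under 0.05 there were 4 members over both sexes, 4 in females and 2 in males, beside 31.2%, 11.5% and 29.1% of all genes. Without female Control replicate 3 edgeR called Cfd over both sexes. DESeq2 called 1 over both sexes (Cfd), 1 in females (Lpl) and 0 in males, and limma on FPKM called none. Among the 5 mice of each genotype off the western blot list, a fit that leaves out only female Control replicate 1, edgeR called 0 members, beside 5.49% of all genes in either direction. Cfd was then at -0.57 ± 0.25 (adjusted p 0.141), Fabp4 at -0.41 ± 0.19 (adjusted p 0.159) and Lpl at 0.65 ± 0.12 (adjusted p 0.00509).

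In hypoxia, Cav1-KO lung held less RNA of the fatty acid transporter Cd36, of the binding protein Fabp5 and of the adipocyte product Cfd than Control lung. These 3 of the 10 members were called lower and 0 higher, beside 2.2% of all genes called lower and 1.94% called higher. DESeq2 called 5 lower (Cd36, Fabp5, Plin1, Adipoq and Cidec), limma on log2(FPKM + 1) 2 (Fabp5 and Cfd) and limma on log2(FPKM + 0.1) 3 (Fabp5, Adipoq and Cfd). The members' median log2 fold change was -1.08 (all genes 0.01). Plin1, Adipoq, Cidec and Retn had differences beyond the fold threshold whose adjusted p missed 0.05. Lpl gave 0.65 ± 0.25 (adjusted p 0.0975), Plin2 -0.23 and Fabp4 0.17.

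Cd36 was at 625, 1353 and 1361 CPM in hypoxic Control females and 376, 671 and 328 CPM in males. In hypoxic Cav1-KO lungs it was at 452, 387 and 353 CPM in females and 281, 354 and 321.7 CPM in males. The female groups did not overlap, with 17.1% of all genes likewise lower in every Cav1-KO female, and the male groups did. Over both sexes the change was -1.02 ± 0.23 (edgeR, adjusted p 0.017), made up of -1.50 ± 0.32 in females (adjusted p 0.0792) and -0.55 ± 0.26 in males. The hypoxic Controls on the western blot list held 328 to 671 CPM, and the 2 off it 1353 and 1361 CPM.

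Fabp5 was at 60.9, 150 and 116 CPM in female and 90.6, 119 and 68 CPM in male hypoxic Controls. The Cav1-KO values were 42, 67.8 and 70.5 CPM in females and 31.4, 35.1 and 35.5 CPM in males. Every male Cav1-KO lung stood below every male Control lung, as for 11.8% of all genes, while the female groups overlapped. Over both sexes Fabp5 fell by 1.17 on the log2 scale (SE 0.22, edgeR adjusted p 0.0104).

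Cfd was at 36.2, 59.9 and 59.7 CPM in female and 95.3, 65.3 and 88.1 CPM in male hypoxic Controls. In Cav1-KO it was at 5.45, 12.3 and 111 CPM in females and 2.84, 3.5 and 8.73 CPM in males. Of the 6 Cav1-KO lungs 5 lay below every Control, and female replicate 3 lay above every Control. In 2.36% of all genes every Cav1-KO lung lay below every Control. The share with 5 of the 6 below was not counted. The change over both sexes was -2.16 ± 0.60 (edgeR, adjusted p 0.0357).

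Adiponectin and perilipin 1 divided the libraries as Cfd did. Adipoq was at 0.344, 0.376 and 8.0 CPM in female and 0.154, 0.127 and 0.568 CPM in male Cav1-KO lungs, against 3.03 to 6.57 CPM in the 6 Controls (median 4.32). Plin1 was at 0.459, 0.669 and 7.82 CPM in female and 0.231, 0.573 and 0.742 CPM in male Cav1-KO lungs, against 1.77 to 14 CPM in the Controls (median 3.55). For both genes 5 Cav1-KO lungs were below all Controls and female replicate 3 was among or above them. As for Cfd, the share of all genes so divided was not counted. Their changes over both sexes were -2.29 ± 0.72 (adjusted p 0.0508) and -2.07 ± 0.70 (adjusted p 0.0642). Cidec gave -1.13 ± 0.37 (adjusted p 0.0591) and Retn -1.03 ± 0.60 (adjusted p 0.242), by edgeR.

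With each sex apart, hypoxic males had 4 members lower in Cav1-KO than in Control, beside 0.58% of all genes called lower. Cfd fell by 4.05 (SE 0.39, adjusted p 0.00495), Adipoq by 3.77 (SE 0.54, adjusted p 0.0216), Plin1 by 2.72 (SE 0.45, adjusted p 0.0332) and Fabp5 by 1.47 (SE 0.20, adjusted p 0.0168) on the log2 scale in edgeR. In males 6 members lay lower in every Cav1-KO than in every Control lung, these 4 with Cidec and Retn, as did 11.8% of all genes. Retn was at 4.95, 2.3 and 6.46 CPM in Control and at 0.884, 0.382 and 1.35 CPM in Cav1-KO (-2.38 ± 0.51, adjusted p 0.0623). In females 0 members were called, beside 0.768% of all genes in either direction. There 2 had an unadjusted p under 0.05 (29% of all genes), DESeq2 called 1 and limma none, and without female Control replicate 1 edgeR called 3 lower (Cd36, Fabp5 and Cidec). That replicate is the only hypoxic Control female on the western blot list, so without it genotype and list cannot be told apart in females. The male calls depended on single mice, with 1 member called without male Control replicate 1 or male Cav1-KO replicate 1, 2 without male Control replicate 3 or male Cav1-KO replicate 3, and 5 without male Control replicate 2.

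The female Cav1-KO library with high adipocyte RNA, replicate 3, bore on the hypoxic result. Markers of other cells were high in it as well, with a summed CPM of 869 for the neutrophil genes (128 to 386 in the other 5 hypoxic Cav1-KO lungs) and of 818 for the cardiac genes (226.1 to 643 in the others). Without it 6 members were called lower over both sexes by edgeR: Adipoq (-3.80 ± 0.42, adjusted p 0.00103), Cfd (-3.30 ± 0.34, adjusted p 0.00087), Plin1 (-3.27 ± 0.54), Retn (-2.14 ± 0.41), Cidec (-1.38 ± 0.38) and Fabp5 (-1.23 ± 0.24). Cd36 then stood at -0.99 ± 0.25, just inside the fold threshold. The count was also 6 without female Control replicate 1, and it dropped to 1 without female Control replicate 2 or 3, male Control replicate 2 or male Cav1-KO replicate 1. It was 2 without male Control replicate 1 or 3, female Cav1-KO replicate 2 or male Cav1-KO replicate 2 or 3. Leaving out all 3 libraries whose sex genes go against their label left 1 member, Fabp5.

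Among animals of the western blot list alone (6 Cav1-KO and 4 Control), 0 members were called lower and 1 higher, beside 0.980% of all genes called. That gene was Lpl, at 1.2 ± 0.24 (edgeR, adjusted p 0.0379). Only 1 of these 4 Controls is female, so the female side of each fold rests on 1 lung, which was assumed to vary like the other groups. Lpl was at 1.82 in females and at 0.57 ± 0.28 (adjusted p 0.308) in males. Cd36 was then at -0.59 ± 0.20 (adjusted p 0.161), Fabp5 at -0.73 ± 0.19 (adjusted p 0.0807) and Cfd at -1.88 ± 0.71 (adjusted p 0.193). All hypoxic Control and Cav1-KO males are on the list, so for males the restriction changes nothing and is no check. In females, with 1 Control, Cd36 was at -0.63, Fabp5 at 0.005 and Cfd at 0.29. The lower Fabp5 and Cfd over both sexes thus came from the males, at -1.47 and -4.05. In the fit over all hypoxic Control and Cav1-KO lungs, some genes of other lung cell types were called too. The summed CPM of 10 alveolar type 2 genes was 15828 to 26575 in hypoxic Cav1-KO (median 18322) and 24959 to 46454 in hypoxic Control (median 27248), with 2 of the 10 called lower, beside 2.2% of all genes. Alveolar macrophages also express Cd36 and Cidec, and of 14 of their genes 1, Fabp1, was called lower, with a list median of -0.81. Without Cidec their summed CPM was 473 to 782 in hypoxic Cav1-KO (median 684) and 595 to 3597 in hypoxic Control (median 763), so the groups overlapped, and female Control replicates 2 and 3 held 3597 and 2489 CPM. Among listed animals alone the 2 type 2 genes, Slc34a2 and Etv5, were at -0.50 and -0.37. Fabp1 was at -0.87 there, and all 3 were inside the fold threshold. The part of these cells in the result was not tested.

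In normoxia, Cav1-RC and Cav1-KO lungs differed by a call in no member, over both sexes, in females or in males, beside 4.28%, 0.1% and 3.59% of all genes in either direction. The members' median log2 fold change over both sexes was -0.03, beside 0.00 over all genes. Retn gave 0.70, Fabp5 0.32, Adipoq and Fabp4 0.10 each and Cfd 0.01, while Plin2 gave -0.29 (adjusted p 0.0641, the lowest of the 10), Cidec -0.27, Lpl -0.15, Cd36 -0.07 and Plin1 -0.06. In males Fabp5 was at 70.6, 91 and 80.7 CPM in Cav1-RC and 53.5, 56.8 and 56.1 CPM in Cav1-KO, without overlap (as in 16.3% of all genes), a difference of 0.54 ± 0.09 (edgeR, adjusted p 0.00329). Cidec was 0.75 ± 0.18 higher in male Cav1-RC (17.3, 18.2 and 16.7 CPM) than in male Cav1-KO (9.2, 13.9 and 7.87 CPM), with an adjusted p of 0.0202. Both stayed under the fold threshold, and 2 of these 3 Cav1-RC libraries are among those with female sex-gene levels. Among animals off the western blot list (4 against 5 over both sexes, with 1 female Cav1-RC lung) 0 members were called, beside 3.70% of all genes, and Fabp5 differed by 0.46 ± 0.09 (adjusted p 0.00635). Unadjusted p values under 0.05 numbered 3 over both sexes, 3 in females and 4 in males, beside 24.4%, 8.73% and 26.1% of all genes, and DESeq2 and limma called 0 in each. Leaving out male Cav1-KO replicate 2 gave 1 call in males (Cidec, higher) and leaving out female Cav1-RC replicate 2 gave 2 in females (Cd36 and Cidec, lower). The latter sets 1 lung, replicate 1 with Cd36 at 431 CPM, against 2, and its spread is taken from the Cav1-KO females.

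In hypoxia, 7 of the 10 members were higher in lungs labelled Cav1-RC than in Cav1-KO lungs and 0 were lower, beside 8.61% of all genes called higher and 6.13% called lower. They were the transporter Cd36, the binding protein Fabp5 and all 5 adipocyte genes. The members' median log2 fold change was 1.34, beside 0.00 over all genes. Cd36 was at 835, 1022 and 991 CPM in female and 1115, 954 and 729 CPM in male Cav1-RC lungs, so that all 6 lay above all 6 Cav1-KO lungs, as they did for 14.1% of all genes. Its difference was 1.40 ± 0.12 (edgeR, adjusted p 5.96e-06), and Fabp5 differed by 1.09 ± 0.18 (adjusted p 0.000296). Over all groups every animal on the western blot list had less Cd36 (281 to 671 CPM) than every animal off it (675 to 1361 CPM).

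Among the 7, Plin1, Adipoq, Cfd and Retn had the largest folds, while that of Cidec was below that of Cd36. Plin1 was at 6.54, 16.4 and 5.8 CPM in female and 14.6, 9.83 and 7.69 CPM in male Cav1-RC lungs, a difference from Cav1-KO of 3.02 ± 0.62 (edgeR, adjusted p 0.00149). Adipoq was at 3.46, 8.62 and 3.53 CPM in females and 9.41, 9.13 and 6.13 CPM in males (2.80 ± 0.70, adjusted p 0.00516). For both, every Cav1-RC lung was above 5 of the 6 Cav1-KO lungs, and female Cav1-KO replicate 3 lay within the Cav1-RC range. Cfd was at 46.3, 69.3 and 34.4 CPM in females and 85.1, 96.6 and 59.4 CPM in males (2.09 ± 0.59, adjusted p 0.00973). Retn, resistin, differed by 1.71 ± 0.56 (adjusted p 0.0218) with 2.79 to 7.06 CPM in Cav1-RC (median 5.73) and 0.382 to 7.82 CPM in Cav1-KO (median 0.815). Cidec differed by 1.28 ± 0.31 (adjusted p 0.00427) with medians of 16.4 and 7.02 CPM. In each of these 3 the same library was the only Cav1-KO lung that was not below all Cav1-RC lungs. The share of all genes divided in this way was not counted.

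The remaining 3 members were not called. Lpl was lower in Cav1-RC (-0.36 ± 0.13, edgeR adjusted p 0.0368), under the fold threshold, with medians of 226.7 CPM in Cav1-RC and 298 CPM in Cav1-KO. Fabp4 differed by 0.41 ± 0.38 (adjusted p 0.384) and Plin2, the droplet coat of most cells, by -0.06.

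In males the same 7 members were called higher, beside 8.16% of all genes. In these 7 and in Fabp4 every male Cav1-RC lung was above every male Cav1-KO lung, as in 27.9% of all genes. Adipoq differed by 4.78 ± 0.46 (adjusted p 0.000238), Plin1 by 4.39 ± 0.41 (adjusted p 0.000223) and Cfd by 3.98 ± 0.39 (adjusted p 0.000238) in edgeR. In females 1 member was called higher, Cd36, at 1.26 ± 0.18 (adjusted p 0.00482), beside 5.58% of all genes. The female count was 2 without female Cav1-RC replicate 1. Without female Cav1-KO replicate 3 it was 5, and the count over both sexes stayed at 7 with larger folds (Adipoq 4.31, Plin1 4.22, Cfd 3.24 and Retn 2.82). Other cell types differed in the comparison over both sexes: 4 of 10 alveolar type 2 genes, 5 of 10 cardiac muscle genes and 10 of 12 neutrophil genes were called higher in Cav1-RC and 0 lower. Among all genes 8.61% were called higher and 6.13% lower. The summed cardiac CPM was 673 to 1373 in Cav1-RC and 226.1 to 818 in Cav1-KO, and that of the neutrophil genes 398 to 978 and 128 to 869. Over all groups the cardiac sum was 168 to 818 in the 12 animals on the western blot list and 673 to 1726 in the 22 off it. Their part in the result was not tested.

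With a term for the western blot list in 1 fit over all 34 libraries, 1 member stayed higher in hypoxic Cav1-RC than Cav1-KO lung, Cfd, at 2.58 ± 0.77 (edgeR, adjusted p 0.0376), and 1 became lower, Lpl, at -1.01 ± 0.29. Adipoq was then at 2.71 ± 0.90 (adjusted p 0.0616), Plin1 at 1.73 ± 0.81 and Cd36 at 0.15 ± 0.22. All hypoxic Cav1-RC mice are off the list and all hypoxic Cav1-KO mice on it, so the term rests on the other groups.

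**Figure D3:**
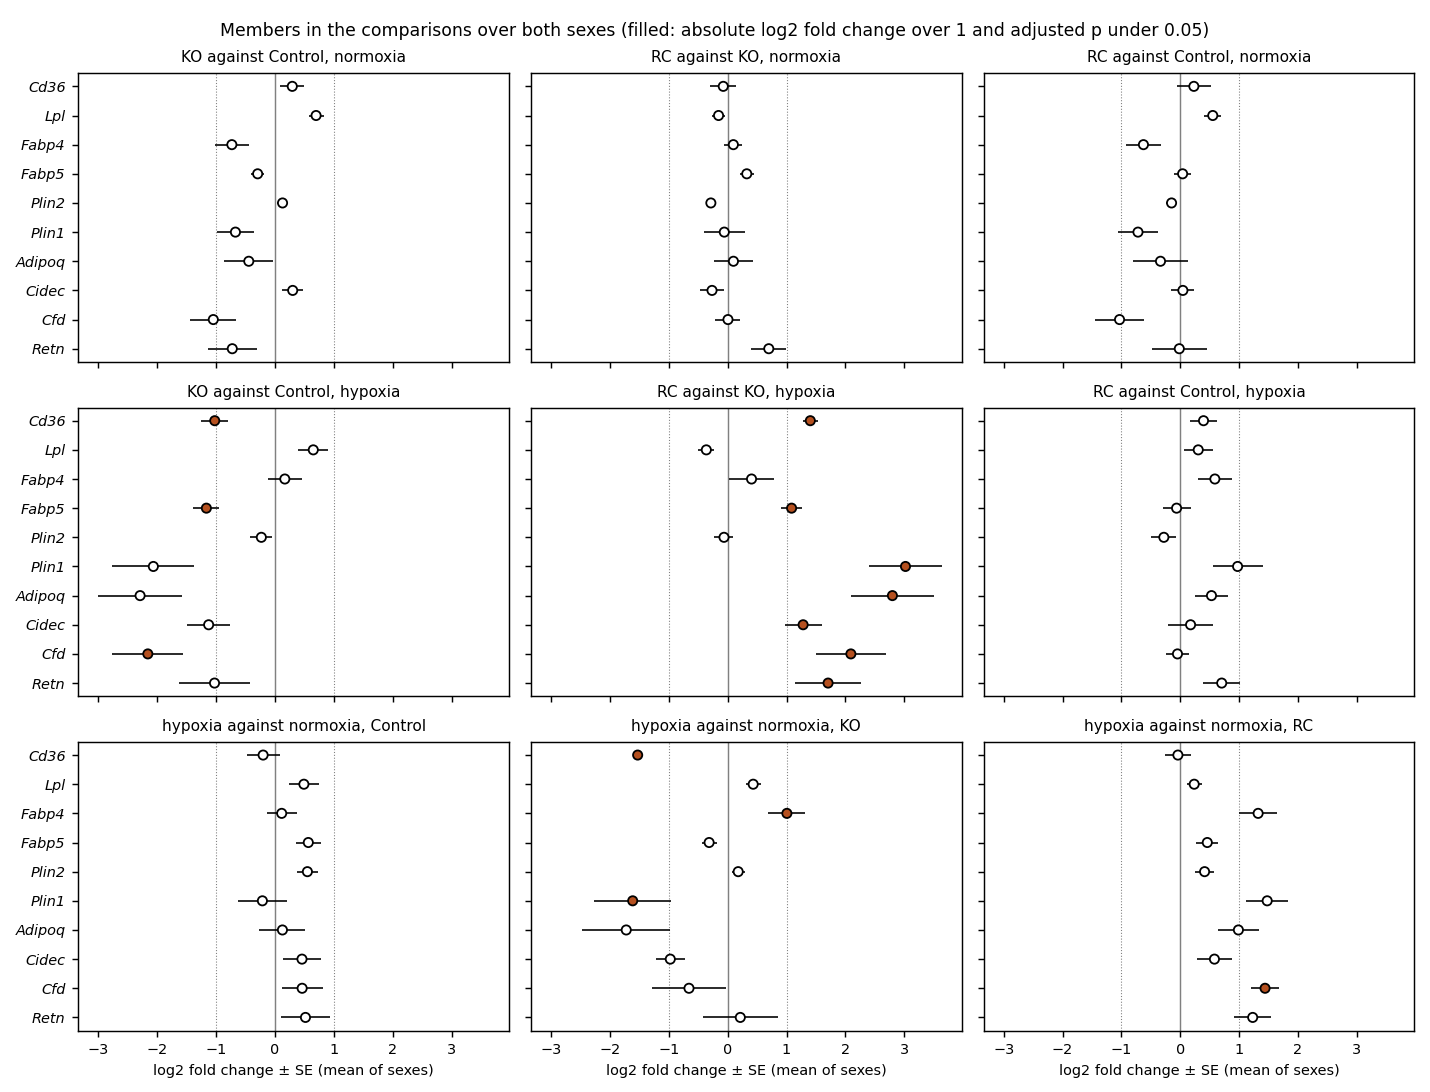
Log2 fold change ± SE (edgeR) of the 10 members in the 9 comparisons over both sexes, with filled points for calls. Cav1-RC against Cav1-KO in hypoxia has 7 filled points, all to the right of 0, and Cav1-RC against Control has none at either oxygen level.

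No member was called between lungs labelled Cav1-RC and Control lungs by edgeR. The count was 0 at both oxygen levels, beside 2.28% of all genes in normoxia and 3.73% in hypoxia in either direction. In normoxia Lpl was at 174 and 181 CPM in female and 248, 217 and 172 CPM in male Cav1-RC lungs, all above the 112 to 164 CPM of the 6 Controls (as in 2.43% of all genes), with a difference of 0.55 ± 0.14 (edgeR, adjusted p 0.0698). Cfd gave -1.03 ± 0.41 (adjusted p 0.289) in normoxia, and the others lay between -0.72 (Plin1) and 0.23 (Cd36), with Fabp4 at -0.63, Adipoq at -0.34, Plin2 at -0.15, Retn at -0.02 and Fabp5 and Cidec at 0.04 each. In hypoxia Plin1 gave 0.97 ± 0.43 (adjusted p 0.16) and Retn 0.70 ± 0.31 (adjusted p 0.162). There Fabp4 was at 0.59, Adipoq at 0.53, Cd36 at 0.39, Lpl at 0.30, Cidec at 0.17, Cfd at -0.05, Fabp5 at -0.06 and Plin2 at -0.28. Unadjusted p values under 0.05 numbered 2 at each oxygen level, beside 13.1% of all genes in normoxia and 28.2% in hypoxia, and neither DESeq2 nor limma called a member. All hypoxic Cav1-RC mice are off the western blot list, and 4 of the 6 hypoxic Controls are on it. Among hypoxic females off the list (3 Cav1-RC against 2 Control) Fabp4 was at 0.51 and Retn at 0.79. The other members were then below 0, with Plin1 at -0.19, Adipoq at -0.24, Cd36 at -0.49, Lpl at -0.17 and Cidec at -0.86. The 3 genotype comparisons share libraries, so their values are not independent of each other.

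In Control lung hypoxia went with higher Cfd and Retn in males, and with no call over both sexes or in females. Over both sexes 0 members were called, beside 0.846% of all genes, and 2 had an unadjusted p under 0.05 (13.6% of all genes), while DESeq2 and limma called 0. Plin2 differed by 0.55 ± 0.17 (edgeR, adjusted p 0.163) and Fabp5 by 0.57 ± 0.21 (adjusted p 0.245). Retn gave 0.52, Lpl 0.49, Cfd and Cidec 0.46 each, Adipoq 0.13, Fabp4 0.11, Cd36 -0.20 and Plin1 -0.21. In females 0 were called, beside 0.0175% of all genes, with 1 unadjusted p under 0.05 (4.79% of all genes) and 0 calls by DESeq2 and limma. In males 2 were called higher in hypoxia, beside 2.44% of all genes. Cfd rose from 19.2, 41.4 and 33.1 CPM to 95.3, 65.3 and 88.1 CPM (1.41 ± 0.27, adjusted p 0.0184), and Retn from 1.02, 1.26 and 1.4 CPM to 4.95, 2.3 and 6.46 CPM (1.91 ± 0.40, adjusted p 0.0233). In 5 members, these with Fabp4, Fabp5 and Plin2, every hypoxic male was above every normoxic male, as in 20.7% of all genes. Cd36 was the 1 member lower in every hypoxic male (376, 671 and 328 CPM) than in every normoxic male (869, 675 and 800.5 CPM), as were 21.3% of all genes. All 3 hypoxic males but no normoxic male are on the western blot list. No member remained called without male Control hypoxia replicate 1 or 3 or normoxia replicate 3, and 1 without normoxia replicate 1 or 2. Without hypoxia replicate 2, 1 of the libraries with female sex-gene levels, Cd36 was called lower beside them. The 4 female Controls off the list, 2 at each oxygen level, gave 2 calls, Plin2 (1.16 ± 0.14, adjusted p 0.00549) and Cidec (1.51 ± 0.18, adjusted p 0.00529), beside 8.47% of all genes. In the same libraries the summed CPM of the alveolar macrophage genes other than Cidec was 664 and 819 in normoxia and 3597 and 2489 in hypoxia, and that of the alveolar type 2 genes 28065 and 27654 in normoxia and 46454 and 40870 in hypoxia. Their part in these calls was not tested.

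In Cav1-KO lung, every hypoxic animal had less Cd36 RNA than every normoxic one. Normoxic values were 987 and 1043 CPM in females and 980, 1054 and 972 CPM in males, and the 6 hypoxic lungs held 281 to 452 CPM. The same held for 20.3% of all genes. All hypoxic and no normoxic Cav1-KO lungs are on the western blot list. Over all groups Cd36 was at 281 to 671 CPM in animals on that list and at 675 to 1361 CPM off it. The change was -1.53 ± 0.08 over both sexes (edgeR, adjusted p 1.56e-07), -1.38 ± 0.13 in females (adjusted p 0.000797) and -1.67 ± 0.11 in males (adjusted p 2.63e-05). Over both sexes 2 members were called lower, Cd36 and Plin1, and 1 higher, Fabp4, beside 8.46% and 9.18% of all genes. DESeq2 and limma on log2(FPKM + 1) called 1, Cd36, and limma on log2(FPKM + 0.1) called 4 lower, Cd36, Plin1, Adipoq and Cidec. The members' median log2 fold change was -0.49 (all genes 0.02).

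Plin1 changed by -1.61 ± 0.66 (edgeR, adjusted p 0.0496), from 1.94 and 5.49 CPM in female and 4.41, 3.21 and 3.83 CPM in male normoxic lungs to the hypoxic values above. Fabp4, a binding protein of adipocytes, capillaries and macrophages, went the other way by 1.01 ± 0.32 (adjusted p 0.0153), with 17.5 and 27.3 CPM in female and 18.1, 17.5 and 17 CPM in male normoxic lungs and 34.7, 41 and 91.4 CPM in female and 33.9, 12.7 and 40.7 CPM in male hypoxic lungs. Its male groups overlapped through 1 hypoxic lung at 12.7 CPM. Lpl was higher by 0.43 ± 0.13 (adjusted p 0.0107), Cidec was lower (-0.97 ± 0.25, adjusted p 0.00505) and so was Fabp5 (-0.32 ± 0.13, adjusted p 0.0457), all under the fold threshold. Adipoq gave -1.72 ± 0.75 (adjusted p 0.0639), Cfd -0.66, Retn 0.21 and Plin2 0.18.

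In hypoxic Cav1-KO females 2 members were called lower than in normoxia, Cd36 and Cidec (-1.16 ± 0.37, adjusted p 0.0446), beside 7% of all genes. In males 4 were called lower, beside 8.97%: Cd36, Adipoq (-3.19 ± 0.48, adjusted p 0.000704), Plin1 (-2.93 ± 0.39, adjusted p 0.000383) and Cfd (-2.25 ± 0.36, adjusted p 0.000861) by edgeR. These 4, with Fabp5 and Cidec, were lower in every hypoxic than in every normoxic male, as were 31.5% of all genes. The female count was 1 without either normoxic female, which leaves 1 lung in that arm, or without hypoxia replicate 2, and without hypoxia replicate 1 it was 1 lower and 1 higher. Without female Cav1-KO hypoxia replicate 3, 6 members were called lower in females. Over both sexes 5 were then lower and 0 higher (Cd36, Adipoq -3.24, Plin1 -2.82, Cfd -1.80 and Cidec -1.23). The count was 2 without female normoxia replicate 1, male normoxia replicate 2 or 3, female hypoxia replicate 1 or 2, or any 1 male hypoxia replicate, and Cd36 was called lower each time. With the western blot list term Cd36 was at -0.27 ± 0.23 (adjusted p 0.62). In the same comparison 5 of 10 alveolar type 2 genes, 6 of 16 capillary endothelial genes, 2 of 9 cardiac genes and 2 of 14 alveolar macrophage genes tested (Ear2 -1.22 and Fabp1 -1.23, list median -0.62) were called lower, whereas 1 capillary gene, Emcn, and 5 of 11 neutrophil genes were called higher (neutrophil list median 1.33), and their part in the result was not tested.

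In Cav1-RC lung, hypoxia went with more Cfd RNA. Cfd, at 22.8 and 26.4 CPM in female and 13.4, 24.5 and 27.9 CPM in male normoxic lungs, was above all of these in every hypoxic lung (34.4 to 96.6 CPM), with a difference of 1.44 ± 0.23 (edgeR, adjusted p 0.0105). It was the 1 member called, beside 0.835% of all genes higher and 0.39% lower. DESeq2 called 4 higher, Cfd with Fabp4, Plin1 and Retn, and limma called Cfd alone. Plin1 did not overlap either (1.48 ± 0.36, adjusted p 0.0593), and 1.77% of all genes were likewise higher in every hypoxic than in every normoxic lung. Fabp4 (1.32 ± 0.33, adjusted p 0.0633), Retn (1.23 ± 0.31, adjusted p 0.0692) and Adipoq (0.99 ± 0.34, adjusted p 0.189) differed in the same direction. Cidec gave 0.58, Fabp5 0.46, Plin2 0.41, Lpl 0.24 and Cd36 -0.04. The members' median log2 fold change was 0.78 (all genes -0.01). The count was 4 without female Cav1-RC hypoxia replicate 3, 3 without female Cav1-RC normoxia replicate 2 (1 normoxic female then remains), 2 without male Cav1-RC normoxia replicate 2, and 0 without the 2 male normoxic libraries of female sex-gene level. Among animals off the western blot list (6 against 4, of which 1 normoxic female), Cfd was called again at 1.40 ± 0.28 (adjusted p 0.0294), beside 1.09% of all genes. In the comparison of all 11 lungs 7 of 12 neutrophil genes were called higher in hypoxia (list median 2.03), with summed CPM of 398 to 978 against 226.8 to 343 in normoxia, and 3 of 16 capillary genes were called lower. Their part in the result was not tested.

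For no member was a difference between the sexes shown. The female minus male log2 fold change was tested in 7 comparisons with edgeR, in which 0 of the members and 0% of all 128863 gene tests passed an adjusted p of 0.05. Of the 70 member tests 16 had an unadjusted p under 0.05, beside 9.06% of all gene tests, DESeq2 called 2 (Lpl and Cidec in Cav1-RC against Cav1-KO in normoxia) and limma 0. The lowest adjusted p among the members was 0.224. Cfd in hypoxic Cav1-KO against Control had a female minus male value of 3.77 ± 1.19 (adjusted p 0.257). These tests take 3 libraries with female sex-gene levels as male, among them 2 of the 3 male Cav1-RC lungs in normoxia. Without the 3 libraries edgeR called 0 members, with 1 male normoxic Cav1-RC lung left. Without female Cav1-RC normoxia replicate 2, which leaves 1 lung in its group, 6 member tests passed (Cd36, Lpl, Fabp5, Plin2 and Cidec for Cav1-RC against Cav1-KO in normoxia, and Cd36 for hypoxia in Cav1-RC), and without female Control hypoxia replicate 1 there were 4 (Plin2 in 2 comparisons, Cidec and Cd36). The male calls of the adipocyte genes are therefore not shown to differ from the female values.

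The Cav1-KO against Control change of 3 members differed between the oxygen levels. All hypoxic and no normoxic Cav1-KO mice are on the western blot list, so oxygen and the list cannot be told apart in Cav1-KO. The difference of the Cav1-KO against Control change, hypoxia minus normoxia over both sexes, was -1.33 ± 0.32 for Cd36 (edgeR, adjusted p 0.0126), -0.89 ± 0.27 for Fabp5 (adjusted p 0.0287) and -1.45 ± 0.45 for Cidec (adjusted p 0.0328), beside 11.7% of all genes with a negative difference that passed the test. Adipoq gave -1.87 ± 0.88 (adjusted p 0.124). Without female Cav1-KO hypoxia replicate 3 there were 6, with Adipoq at -3.38, Plin1 at -2.62 and Cfd at -2.28 added. The count was 1, Cd36, without male Control normoxia replicate 2, female Cav1-KO normoxia replicate 2 or female Control hypoxia replicate 2 or 3. It was 2 without female Control normoxia replicate 2, male Control normoxia replicate 3, female Cav1-KO normoxia replicate 1, male Cav1-KO normoxia replicate 2, female Cav1-KO hypoxia replicate 1 or 2 or male Cav1-KO hypoxia replicate 1, and with a term for the western blot list none remained (Cd36 -0.72 ± 0.22, adjusted p 0.0575).

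Other genes of fatty acid capture showed mixed changes. Of 27 such genes, among them the Lpl anchor Gpihbp1, the transporters of the Slc27a family and the acyl-CoA synthetases, 21 were tested for hypoxic Cav1-RC against Cav1-KO lung over both sexes, and 3 were called higher and 1 lower, beside 8.61% and 6.13% of all genes. The transporter gene Slc27a6 (1.53) and the synthetase gene Acsl6 (1.77) were higher, as was Fabp1 (1.24), and Tcf15, which with Meox2 encodes a regulator of endothelial fatty acid uptake, was lower (-1.70). In Cav1-KO lung hypoxia went with lower Slc27a6 (-2.59) and Lipg, endothelial lipase (-1.06), and higher Tcf15 (1.76), with 2 of 22 called higher and 3 lower, beside 9.18% and 8.46% of all genes. Gpihbp1 lay at 177 to 344 CPM in hypoxic Cav1-KO lung (median 251) and at 135 to 213 CPM in hypoxic Control (median 163). Hypoxic Cav1-KO against Control gave 0 higher and 2 lower (Fabp1 -1.86 and Slc27a6 -1.17) of 23 tested, beside 2.2% of all genes lower. Among listed animals alone neither was called, at -0.87 ± 0.30 (edgeR, adjusted p 0.163) and -0.70 ± 0.28 (adjusted p 0.224). The same contrast in normoxia gave 0 and 2 of 22, beside 5.78% of all genes in either direction (Slc27a2 -1.29 and Angptl4, an Lpl inhibitor, -1.02).

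Genes of triglyceride synthesis were among the calls of the lipid droplet list. Of 20 lipid droplet genes tested, hypoxic Cav1-KO lung had 0 higher and 3 lower than Control, namely the synthesis genes Dgat2 (-1.25) and Gpam (-1.0) and the lipase gene Mgll (-1.04), beside 2.2% of all genes called lower. Hypoxic Cav1-RC against Cav1-KO gave 3 higher, Dgat2 (2.17), Gpam (1.48) and the lipase gene Pnpla2 (1.06), and 0 lower, beside 8.61% of all genes higher. Hypoxia in Cav1-KO lung gave 2 higher, the lipase gene Lipe (1.35) and Cidea (1.89), and 4 lower, with Dgat2 at -1.73, Gpam at -1.61, Lpin1 at -1.13 and Abhd5 at -1.04, beside 9.18% of all genes higher and 8.46% lower. In normoxia Cav1-KO lung had less Cidea (-1.89) and Plin5 (-1.06) than Control. The 2 synthesis genes divided with the western blot list over all groups, Dgat2 at 3.0 to 11.8 CPM on it and 16.9 to 35.7 CPM off it, and Gpam at 8.83 to 58.1 and at 60.0 to 184 CPM. Lpin1 did so too, at 18.2 to 29.6 CPM on it and 37.7 to 79.7 CPM off it. Among listed animals alone hypoxic Cav1-KO against Control gave 0 calls for the 3 genes, with Dgat2 at -0.47 ± 0.27 (edgeR, adjusted p 0.379), Gpam at -0.40 ± 0.14 (adjusted p 0.161) and Mgll at -0.62 ± 0.11 (adjusted p 0.0173).

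White adipocyte genes outside the 10 members included the makers of fatty acids. For hypoxic Cav1-RC against Cav1-KO the counts of this paragraph stand beside 8.61% of all genes called higher and 6.13% called lower. Of 21 tested, 7 were called higher and 0 lower in hypoxic Cav1-RC than in Cav1-KO lung. By adjusted p they were led by Acly (1.38) and Fasn (1.94), which alveolar type 2 cells also express, and by Sncg (1.23). The largest fold was that of Pck1 (3.34). Hypoxic Cav1-KO against Control gave 3 lower, Fasn (-1.62), Acly (-1.05) and Pck1 (-2.79), and 0 higher, beside 2.2% of all genes lower. The summed CPM of the list was 8245 and 6293 in the 2 hypoxic Controls off the western blot list, against 1599 to 2070 in the 4 on it and 1115 to 3012 in Cav1-KO. Acly was at 73.4 to 136 CPM in animals on the list and at 141 to 491 CPM off it over all groups, and Fasn at 96.9 to 233.9 and 185 to 1450 CPM. Among listed animals alone none of the 3 was called, at -0.46 ± 0.19 for Fasn (edgeR, adjusted p 0.233), -0.35 ± 0.11 for Acly (adjusted p 0.141) and -2.10 ± 0.95 for Pck1 (adjusted p 0.264). The median log2 fold change of the list was 0.76 and -0.49 in these comparisons. Of the brown adipocyte genes 8 were tested, and for Cav1-RC against Cav1-KO in hypoxia Ppara was called higher (1.81) and Dio2 lower (-1.83). Among 16 capillary endothelial genes Kdr, the VEGF receptor, was higher in that comparison (1.36) and 0 were lower. Kdr and Ppara divided with the western blot list over all groups. Kdr was at 141 to 239 CPM on it and 282 to 557 CPM off it, and Ppara at 0.661 to 1.95 and 2.51 to 6.28 CPM. The summed CPM of the 16 capillary genes ranged from 3550 to 5729 in hypoxic Cav1-KO and from 4119 to 5574 in hypoxic Cav1-RC lung. Of 14 alveolar macrophage genes 2 were called higher and 0 lower in the same comparison, Fabp1 and Cidec itself, and the summed CPM of 13, without Cidec, was 465 to 4007 in Cav1-RC (median 549) and 473 to 782 in Cav1-KO (median 684). All log2 fold changes in these lists, save those among listed animals alone, come from the edgeR fits over both sexes and passed the adjusted p and fold thresholds.

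Across the 34 libraries Adipoq, Plin1, Cfd and Retn varied together, and Cidec followed them less closely. Adipoq and Plin1 had a Pearson r of 0.93 on log2 CPM, Adipoq and Cfd 0.92, Plin1 and Cfd 0.84 and Adipoq and Retn 0.79. These points share groups, depth and the western blot list. Within the animals off the list r was 0.86, 0.88, 0.93 and 0.84, and within those on it 0.97, 0.98, 0.97 and 0.91. Cidec had an r of 0.65 with Adipoq, 0.64 with Plin1, 0.51 with Cfd and 0.45 with Retn over all libraries, of 0.21 to 0.34 off the list and of 0.79 to 0.84 on it. Cd36 followed Adipoq less closely, with r of 0.52 over all libraries, 0.10 off the list and 0.39 on it. Cd36 and Lpl had an r of -0.20 over all, 0.35 off the list and -0.79 on it.

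**Figure D4:**
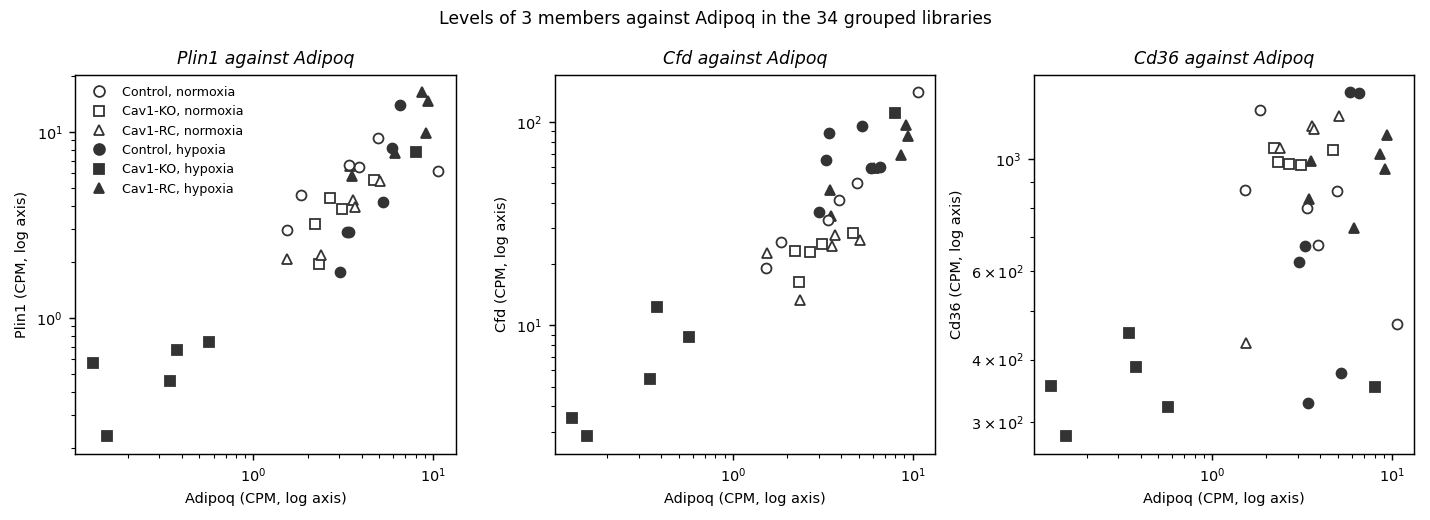
CPM of Plin1, Cfd and Cd36 against Adipoq in the 34 libraries (log axes), with a marker for each genotype and filled markers for hypoxia. Plin1 and Cfd lie along 1 line with Adipoq (r 0.93 and 0.92), and Cd36 does so less (r 0.52).

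Of the 19870 genes kept over the 12 groups, those most like Adipoq in log2 CPM were Car3 (r 0.968), an adipocyte and muscle carbonic anhydrase, Plin1 (0.927), Cfd (0.922), A530016L24Rik (0.812) and Aqp3 (0.810). Those most like Cd36 were Dusp3 (0.973), Wls (0.966), Itgb5 (0.965), App (0.965) and Fkbp9 (0.965). Off the western blot list the r of Cd36 with these 5 was 0.763 to 0.902, and on it 0.801 to 0.889. Off it the r of Adipoq was 0.891 with Car3 and 0.548 with Aqp3.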

How the data were processed

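RNA of whole lungs was sequenced for 34 grouped mice. The authors mapped reads to mm10 with HISAT2 2.0.5 and deposited counts per gene from featureCounts 1.5.0-p3, both at default parameters, and the FPKM the authors computed from them. No strand setting beyond the defaults is stated. CPM with TMM factors and all tests were computed from the deposited counts with edgeR 4.0.16 in R 4.3.3 (filterByExpr, estimateDisp, glmQLFit, glmQLFTest), on the libraries compared. Calls needed an absolute log2 fold change over 1 and a Benjamini-Hochberg adjusted p under 0.05 over all genes tested. The 12 comparisons within a sex had no covariate, the 9 over both sexes used the mean of the sexes' fold changes, and 7 sex differences and 1 oxygen difference were interactions called on adjusted p alone. SE is the fold change over the root of F. DESeq2 1.42.0 on counts and limma 3.58.1 on log2(FPKM + 1) and log2(FPKM + 0.1), which understates changes of low genes, were alternatives, with other filters, a replicate block, a western blot list term and each library left out in turn. Where that left a group with 1 mouse, the mouse was assumed to vary like the other groups. Scripts were tested on simulated data. No pair of replicates was a duplicate by a chi-square check of counts.

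The 10 members and the other lists were chosen with earlier results of these data known. All members are named in every comparison over both sexes, with Cav1, at most 3 genes of smallest adjusted p per other list (and, added after values were seen, further called genes of the droplet list, Fabp1, Gpihbp1, Emcn, Cebpa, Adipor2, Fasn, Scd1, Adrb3, Lep, Ucp1, Sftpc and summed marker levels), and the 5 genes most correlated with Adipoq and with Cd36. The western blot list comes from the study's source files. The labels leave 1 further library's group uncertain, and it enters no comparison. P-values measure the spread between the mice of a group, and low-count genes such as Plin1 carry wider counting error.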

Additional observations from a re-analysis of the deposited data

Results flagged for a closer look

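In 60 sets of libraries (each member in each genotype and oxygen level) 11 extreme values stood apart by Dixon's criterion. For normally spread values about 1 of 20 sets would meet it. The CPM here were not on a log scale, and the sets mix sexes and list classes and share libraries. That rate is therefore no measure of how unusual the 11 are. Female Cav1-KO hypoxia replicate 3 gave 6 of them: Fabp4 at 91.4 CPM (next library 41.0), Plin1 at 7.82 (0.742), Adipoq at 8.0 (0.568), Cidec at 15.7 (8.07), Cfd at 111 (12.3) and Retn at 7.82 CPM (1.35). Female Control normoxia replicate 1, the only normoxic Control on the western blot list, gave 3, with Fabp4 at 70.1 CPM (next 34.9), Adipoq at 10.7 (4.93) and Cfd at 141 CPM (50.0). Fabp4 stood at 27.3 CPM in female Cav1-KO normoxia replicate 2 (next 18.1). Cd36 stood at 431 CPM in female Cav1-RC normoxia replicate 1, while the nearest other library of that genotype and oxygen level had 1051 CPM; this animal is the only one of them on the western blot list.

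The change between Cav1-KO and Control differed between hypoxia and normoxia, by the edgeR interaction test, for Cd36 (-1.33, adjusted p 0.0126), Fabp5 (-0.89, adjusted p 0.0287) and Cidec (-1.45, adjusted p 0.0328). With a term for the western blot list none of these passed the test, and in Cav1-KO mice oxygen and the list cannot be told apart.

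The library of uncertain group, which enters no comparison, had Lpl at 333.4 CPM, above the highest of the 12 Control libraries (254 CPM). Its Cd36 (298.8 CPM), Fabp5 (48.0 CPM) and Plin1 (1.51 CPM) were below the lowest Control values, of 327.6, 48.7 and 1.77 CPM.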

How the results depend on the processing

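Calls depended on the processing more than directions did for members with an unadjusted p under 0.05 (edgeR) over both sexes or in the oxygen difference. Of 529 values under other settings 445 kept direction and side of the threshold, 44 lost the threshold, 39 gained it and 1 reversed. That one is Fabp5 in hypoxia against normoxia of Cav1-KO, at 0.33 with a term for the western blot list. Of 570 values with a library left out, 503 kept both, 46 lost and 21 gained the threshold, and 0 reversed. Outside this tally directions turned too. For hypoxic Cav1-KO against Control in females the members' median went from -0.63 to 0.40 among listed animals alone, where 1 Control is left. Cav1-RC against Control had 0 calls under every setting. Cav1-KO against Control within each sex (4 calls) gave 7 by DESeq2, 8 with no low-count filter, 2 by limma with either pseudocount, 0 by limma with no filter, 7 with the replicate block and 1 to 7 with a library left out. Over both sexes (3 calls) it gave 6 by DESeq2, 7 with no low-count filter, 6 with 1 fit over all 34 libraries, 1 by limma with no filter, 1 without the sex-discordant libraries and 1 to 6 with a library left out. Cav1-RC against Cav1-KO gave 3 calls within each sex (of 8) and 2 over both sexes (of 7) with the list term, and with a library left out 8 to 12 and 6 to 7. Hypoxia against normoxia within each sex (8 calls) gave 5 with 1 fit over all libraries, 5 by limma with pseudocount 1, 4 by limma with no filter and 2 with the list term. Over both sexes (4 calls) it gave 8 with no low-count filter, 2 by limma with pseudocount 1, 1 with no filter there, 9 with the replicate block, 1 with the list term, 7 with no fold threshold and 3 to 7 with a library left out. The oxygen difference (3 calls) gave 1 by each limma setting, 0 with the list term and 1 to 6 with a library left out. Sex differences (0 calls) gave 2 by DESeq2, 12 with no low-count filter and 0 to 6 with a library left out. The causes were not tested. A pairing of mice by replicate number was not seen throughout: of 33 same-numbered pairs 4 had deviations correlated over 0.1 (-0.0722 to 0.418), and in 0 comparisons did every pair. The highest, 0.418 and 0.410, were for hypoxia against normoxia in Control females. With groups of 2 or 3 mice such values cannot exclude a pairing. The tests on 1 class of the western blot list, and the counts without female Cav1-KO hypoxia replicate 3, were chosen after seeing the data. Depth limits the scarce adipocyte genes most.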

Other observations

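The labels call the library of uncertain group possibly a normoxic Cav1-KO female, and the western blot list has its animal as one. In it Cav1 was at 4.82 CPM, below the 989 to 1356 CPM of the Control libraries and near the levels of the libraries labelled Cav1-KO and Cav1-RC. Its fatty acid genes were at 298.8 CPM for Cd36, 59.3 for Fabp4, 48.0 for Fabp5 and 135.8 for Plin2. Its Cd36 was below the 972 to 1054 CPM of normoxic Cav1-KO lungs and within the 281 to 452 CPM of hypoxic ones. Its Lpl (333.4 CPM) was above normoxic Cav1-KO (136 to 307 CPM) and within hypoxic Cav1-KO (210 to 359 CPM). Fabp4 and Fabp5 also lay outside the normoxic and inside the hypoxic Cav1-KO range, and Plin2 inside both. The cause was not tested. The adipocyte genes were at 1.51 CPM for Plin1, 1.87 for Adipoq, 8.38 for Cidec, 27.4 for Cfd and 2.43 for Retn.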
